A study of Homo sapiens with 12 samples.

Results

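The genes described here were chosen to read the response of HT-29 colorectal cancer cells themselves. RNA carried over from mast cells, at its level in mast cells kept alone, cannot raise the level measured in these genes. It can still lower that level by dilution, so small falls may hold a part of it. A gene was kept when its mean level was at least 10 CPM (counts per 1e6 counts of the library) in HT-29 alone and when its mean level in LAD2 mast cells alone was no higher. The rule used no value from coculture and kept 5590 of the 58721 genes in the count table, and in 5435 of them the level in LAD2 coculture was no higher either. At the margins of the rule, WDR27 was kept at 10.0 CPM and UCHL3 was left out at 9.98 CPM, and ZNF706 was kept at 69.38 CPM in HT-29 against 69.37 CPM in LAD2 alone while SPAG5 was left out at 107.5 against 107.7 CPM. Of 9139 genes at 10 CPM or more in HT-29 alone, 3549 were higher in LAD2 alone and are not described. RNA sequencing was performed on HT-29, a human colorectal adenocarcinoma line of epithelial origin, and on the human mast cell line LAD2, each line kept by itself or in direct contact with the other for 12 h. HT-29 was maintained in McCoy 5A medium with 10% serum and LAD2 in SP34 medium, and the labels name no genetic change and no drug in any group. Each of the 4 groups had 3 columns, of which the 3 of LAD2 coculture were identical in every gene and counted as 1 library. The labels give neither the coculture medium nor how the lines were separated before extraction, so these cannot be told apart from contact with mast cells. No label says whether replicates are separate cultures, and p-values then reflect the spread among these libraries alone, which may be technical.

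Mast cells are tissue-resident immune cells that store histamine, proteases and heparin in granules and release lipid mediators, cytokines and growth factors when stimulated. They depend on stem cell factor, the product of KITLG, which epithelial and stromal cells present to the receptor KIT on the mast cell surface. Colon epithelial cells rest on a basement membrane of laminins to which they bind through integrins, and many of their adhesion and motility genes are transcribed downstream of the EGF receptor and the ERK kinase cascade. Changes in this programme are studied in colorectal cancer as part of a partial epithelial-mesenchymal transition (EMT), in which cells loosen their attachment while keeping epithelial features.

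HT-29 libraries held 17.2 to 34.1 M counts (M, 1e6) alone and 18.4 to 29.6 M in coculture, and the kept genes took 73.3% to 73.6% of the counts alone and 72.7% to 73.0% in coculture. RNA of LAD2 made up 1.04%, 1.09% and 1.19% of the 3 coculture libraries, as measured on 309 genes at 50 CPM or more in LAD2 alone and at most 0.5 CPM in HT-29 alone. A share of 1.11% dilutes every HT-29 transcript by 0.016 on the log2 scale. The 24 mast cell markers summed to 33.7 to 34.1 CPM in HT-29 alone, where 15 of them were at 0, and to 302.4 to 334.3 CPM in coculture, where 1 was at 0. None of the mast cell markers is among the kept genes. The 22 colon epithelium markers summed to 13990 to 14582 CPM alone and 14263 to 14480 CPM in coculture, so the groups overlapped, and 17 of the 22 were at 10 CPM or more in both groups. In bulk RNA, fewer cells of a type and less RNA per cell cannot be told apart.

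The comparison of the HT-29 groups asks which genes the cancer cells raise or lower when mast cells are present, and most differences were small. Of the 5590 kept genes, 130 were called higher (2.33%) and 356 lower (6.37%), against 820 higher (5.83%) and 413 lower (2.94%) of all 14070 genes tested. In either direction the shares were 8.69% and 8.76%. Counts on the gene lists below stand beside the 2.33% higher and 6.37% lower of all kept genes. Of the 3549 genes that were left out because LAD2 alone was higher, 5.55% were called higher, 1.18% lower and 6.73% in either direction. The rule itself bears on these directions, since LAD2 RNA in coculture libraries lowers genes that are lower in LAD2 and raises the left-out genes. The minimum level was set on HT-29 alone, which admits falls near 10 CPM and leaves out rises there. With both limits set on the mean of the 6 HT-29 libraries, 5602 genes were kept, 133 of them called higher and 352 lower. The part of the rule in the contrast was not tested, and calls with offsets for a mixture with LAD2 RNA are given below. A gene was called when its adjusted p was under 0.05 in edgeR's two-sided quasi-likelihood test, adjusted by Benjamini and Hochberg over all 14070 genes, and every adjusted p below comes from this fit. The median called rise was 0.13 and the median called fall was -0.10 on the log2 scale. Among called genes, 100 rose (1.79%) and 187 fell (3.35%) by 0.1 or more, 16 rose (0.286%) and 30 fell (0.537%) by 0.2 or more, and 2 rose (0.0358%) and 3 fell (0.0537%) by 0.3 or more. Levels of the 3 coculture libraries lay wholly above those of the 3 alone libraries in 571 kept genes (10.2%) and wholly below in 733 (13.1%), against 15.6% and 7.83% of all genes tested. The spread between replicates was small, with a biological coefficient of variation of 1.7%, and the smallest called changes were 0.06 on the log2 scale.

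**Figure D1:**
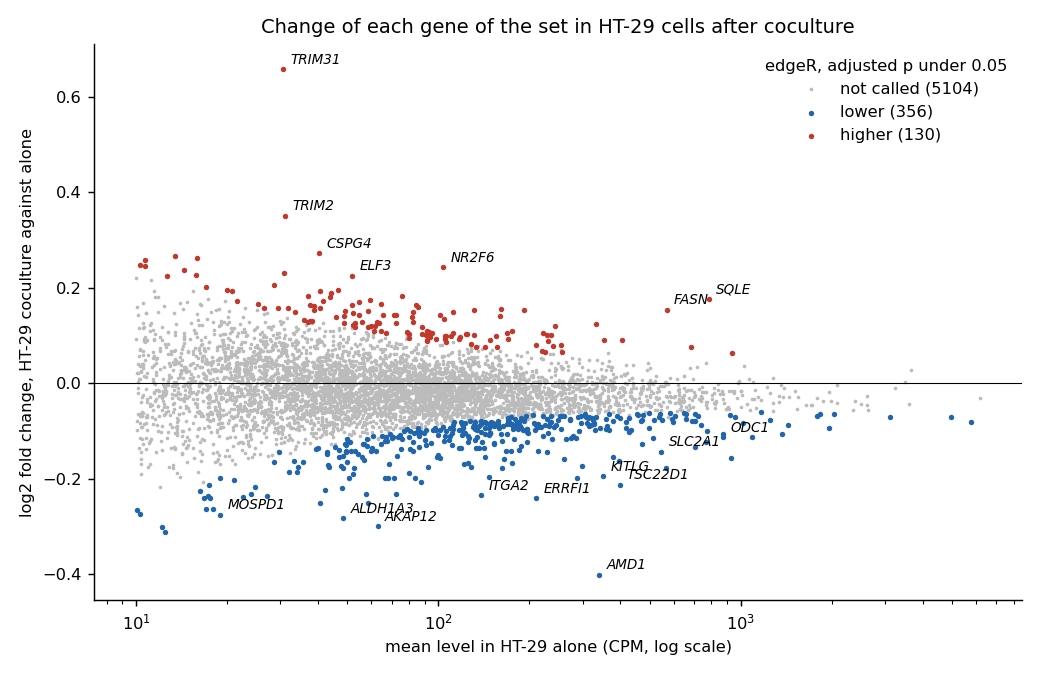
Each point is 1 of the 5590 kept genes, with its mean level in HT-29 alone (CPM, log axis) on the x axis and its log2 fold change in coculture on the y axis. Red points are the 130 genes called higher and blue points the 356 called lower. TRIM31 at 0.66 and AMD1 at -0.40 lie farthest from 0.

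The balance of rises and falls depended on how libraries were scaled. Rises made up 26.7% of calls with TMM factors taken over all genes, 44.3% with library totals (184 higher, 231 lower), 50.2% with TMM factors taken over the kept genes (208 and 206), and 40% and 39.3% with offsets for a mixture with LAD2 RNA (144 and 216 with the LAD2 alone profile, 145 and 224 with the LAD2 coculture profile). The kept genes had a median log2 fold change of -0.02 with TMM factors over all genes, -0.0044 with library totals, -0.00085 with TMM factors over the kept genes, and -0.0097 and -0.0103 with the offsets for the LAD2 alone and LAD2 coculture profiles. The median of all tested genes was 0.00 with TMM factors over all genes. Under all 7 scalings tried, 78 genes were called higher (1.4%) and 189 lower (3.38%), and no called gene named below changed direction under any. Leaving out alone replicate 2 left 71 higher and 232 lower calls, and leaving out coculture replicate 1 left 70 and 248.

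**Figure D2:**
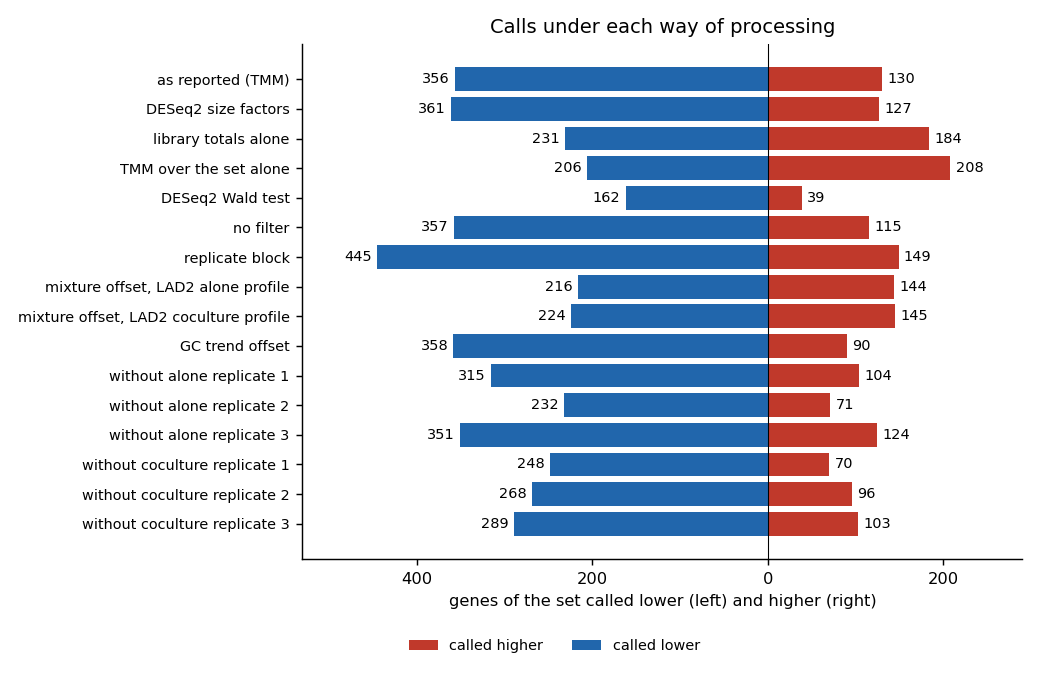
Bars give the number of kept genes called lower (left, blue) and higher (right, red) under each way of processing the same libraries. Falls outnumber rises except with TMM factors over the kept genes, where 208 rose and 206 fell.

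GC content of the transcripts moved with the direction of the calls. The median was 49.8% in all kept genes, 59.8% in those called higher and 46.7% in those called lower. In the 559 genes with the lowest GC content, 35 were called, all of them lower, and in the 559 with the highest, 41 were called higher and 12 lower. An offset for the GC trend of each library, added after the data had been seen, gave 90 higher and 358 lower calls, of which 80 and 282 were among the 130 and 356.

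The largest rises were in genes for ubiquitin ligases, a surface proteoglycan, matrix proteins and transcription factors. TRIM31, a ubiquitin ligase of the tripartite motif family (chr6:30102897-30113106, GRCh38), was measured at 28.9, 31.98 and 30.8 CPM alone against 49.1, 47.1 and 51.2 CPM in coculture, a rise of 57.7% (log2 fold change 0.66, SE 0.0441, adjusted p = 9.68e-16). TRIM2, a ubiquitin ligase of the same family on another chromosome, stood at 27.8, 32.7 and 32.9 CPM alone against 39.4, 38.2 and 44.2 CPM in coculture (log2 fold change 0.35, SE 0.0516, adjusted p = 1.35e-06). In both genes all coculture libraries lay above all alone libraries. TRIM31 overlaps its antisense gene TRIM31-AS1, and whether the counting used strand is not given in the sources used here, so reads of the pair cannot be told apart. The other kept TRIM genes of the chromosome 6 cluster, 2 in number, were not called. CSPG4, a transmembrane chondroitin sulfate proteoglycan, was at 40.1, 40.2 and 40.7 CPM alone against 48.8, 48.6 and 50.1 CPM in coculture (log2 fold change 0.27, SE 0.0391, adjusted p = 8.08e-07), with replicates of each group closer together than in either TRIM gene. ABCG2, an efflux transporter, stood at 32.00, 30.3 and 30.01 CPM alone against 37.6, 35.6 and 35.5 CPM in coculture (log2 fold change 0.23, SE 0.0459, adjusted p = 0.000275). NR2F6, an orphan nuclear receptor, was at 98.9, 102 and 111 CPM alone against 126, 121 and 124 CPM in coculture (log2 fold change 0.24, SE 0.0299, adjusted p = 2.46e-08). These 3 genes were called in all 16 fits, and their groups did not overlap.

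Among the rest of the 12 largest rises, MAOA, a mitochondrial oxidase of serotonin and other amines, rose by 0.27 on the log2 scale, SH3PXD2A, a scaffold of podosomes, by 0.26, LAMB2, a laminin chain, by 0.24, and PLCE1, a phospholipase C, by 0.22. SLC27A3, of a family of fatty acid carriers, rose by 0.24, and VWA2, a secreted matrix protein, by 0.25 (adjusted p = 0.05 after rounding, just under the threshold). ELF3 is described with the transcription factors. These genes had mean levels of 10.3 to 15.8 CPM alone except ELF3, and the calls were less stable than those above, with VWA2 called in 8 of 16 fits and SLC27A3 in 10.

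**Figure D3:**
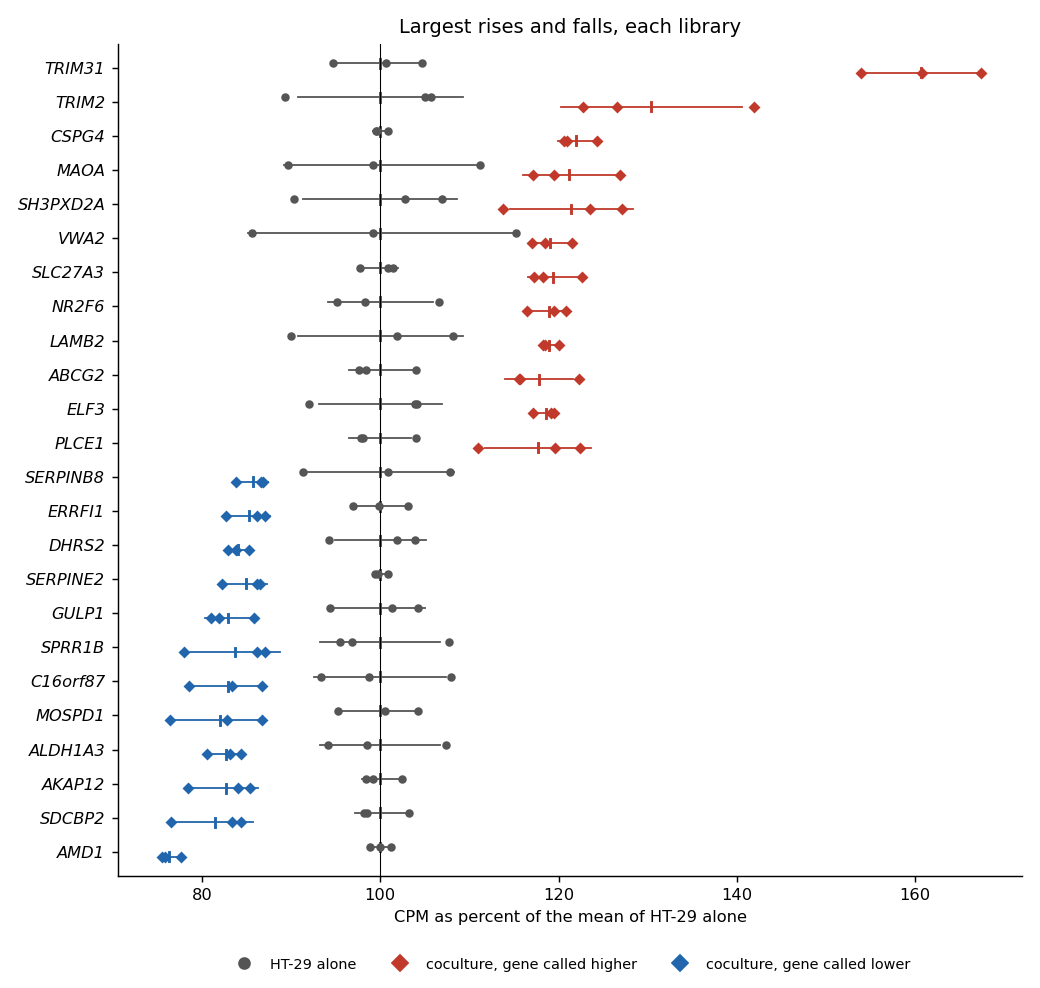
Levels of the 12 largest rises and 12 largest falls in each library, as percent of the mean of HT-29 alone (x axis). Circles are the 3 alone libraries and diamonds the 3 coculture libraries, vertical marks are means and horizontal lines are ± 1 SD. The coculture libraries of every gene shown lie on 1 side of the alone libraries.

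The largest fall was in polyamine synthesis. AMD1 (chr6:110874770-110895713, GRCh38) encodes S-adenosylmethionine decarboxylase, which makes the aminopropyl donor for spermidine and spermine, and was measured at 345, 337 and 341 CPM alone against 259, 265 and 258 CPM in coculture, so that it fell by 24.3% (log2 fold change -0.40, SE 0.021, adjusted p = 2.25e-19). The coculture libraries all lay below the alone libraries, and the call held in all 16 fits. ODC1, which makes putrescine, from which spermidine is built, stood at 888, 878 and 863 CPM alone against 823, 830.1 and 801 CPM in coculture (log2 fold change -0.11, SE 0.0204, adjusted p = 6.08e-05). MAT2B, a regulatory subunit of the enzyme that makes S-adenosylmethionine, fell by 0.09 (adjusted p = 0.032), a call held in 5 of 16 fits. The spermine and spermidine synthases SMS and SRM had log2 fold changes of -0.06 and -0.05 and did not pass (adjusted p = 0.118 and 0.22). Of 13 genes on the polyamine list, 7 were kept. Of these, 3 were called lower and 2 of them under all 7 scalings, beside 6.37% and 3.38% of all kept genes. Their median log2 fold change was -0.06 over the 7, against -0.02 in all kept genes.

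The other large falls were in genes of varied roles. AKAP12, a scaffold that binds protein kinase A, was at 61.9, 64.4 and 62.4 CPM alone against 49.4, 52.9 and 53.7 CPM in coculture (log2 fold change -0.30, SE 0.0372, adjusted p = 3.19e-08). ALDH1A3, which makes retinoic acid, stood at 51.9, 47.7 and 45.6 CPM alone against 40.8, 40.2 and 38.97 CPM in coculture (log2 fold change -0.28, SE 0.0435, adjusted p = 3.52e-06). DHRS2, a short-chain dehydrogenase, was at 59.5, 55.03 and 60.7 CPM alone against 48.96, 49.8 and 48.4 CPM in coculture (log2 fold change -0.25, SE 0.0392, adjusted p = 4.86e-06). In these 3 genes the groups did not overlap and every fit called the fall. SDCBP2, a syntenin, fell by 0.30, GULP1, an engulfment adaptor, by 0.26, SPRR1B, a precursor of the cornified envelope, by 0.26, and SERPINB8, a protease inhibitor, by 0.24, from mean levels of 12.1 to 17.9 CPM alone. MOSPD1 and C16orf87 fell by 0.28 and 0.27, the latter in 8 of 16 fits. C16orf87 had means of 10.3 CPM alone and 8.56 CPM in coculture, and SDCBP2 of 12.1 and 9.89 CPM. Both reached the minimum of 10 CPM only in HT-29 alone, the group where they were higher. SDCBP2 and ALDH1A3 overlap antisense genes expressed here.

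Genes of basement membrane laminins moved both ways, and several integrins fell. LAMA3 and LAMB3, which encode laminin chains that anchor epithelial cells, were called lower, while LAMB2, another laminin chain, was among the largest rises above. LAMA3 (chr18:23689443-23956222) was at 84.1, 83.8 and 83.9 CPM alone against 74.4, 72.1 and 75.01 CPM in coculture (log2 fold change -0.20, SE 0.0312, adjusted p = 5.16e-06). LAMB3 (chr1:209614870-209652466) stood at 124, 121 and 120.1 CPM alone against 107, 114 and 107 CPM in coculture (log2 fold change -0.17, SE 0.0281, adjusted p = 1.45e-05). For both chains the highest coculture library lay below the lowest alone library, and all 16 fits called the fall. PLAUR, the receptor of urokinase, which localises plasmin formation at the cell edge, was at 79.6, 80.2 and 79.8 CPM alone against 72.5, 68.4 and 71.1 CPM in coculture (log2 fold change -0.19, SE 0.0323, adjusted p = 2.47e-05), again without overlap. The AP-1 site TGANTCA, searched on both strands in the 250 bases before each RefSeq start (GRCh38.p14), was found in LAMA3, LAMB3 and PLAUR, 3 of the 7 called partial EMT genes with a promoter in the table, and not in SERPINE2, ITGA2, ITGB1 or DKK1. Of the 8 such genes among the ERK output genes described below, PLAUR was the 1 with a match. KITLG, PVR, AKAP12 and AMD1, called lower, and TRIM31, called higher, were also searched and had no match. These windows of 30 bases, on the strand of the gene, show the match in capitals.
LAMA3 (chr18:23872884-23872913, plus strand): ctggcacaggcTGACTCAtgtgtgaagttt
LAMA3 (chr18:23872940-23872969, plus strand): ccttcctcaccTGAGTCAggcaggcccggg
LAMB3 (chr1:209651423-209651452, minus strand): gtcagccactcTGACTCAttcactttgggc
PLAUR (chr19:43670337-43670366, minus strand): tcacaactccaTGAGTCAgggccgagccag
The windows lie inside the gene spans of GENCODE 29, before a RefSeq start. A match was present before a start of 8.06% of 27305 genes, of 5.75% of the 4575 kept genes with a promoter in the table, of 9.75% of the 277 called lower and of 4.04% of the 99 called higher. A match describes letters and does not show that a factor binds there.

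Receptor chains for matrix fell less evenly. ITGA2, a subunit of a collagen receptor, was at 139, 140.4 and 137 CPM alone against 117, 119 and 122 CPM in coculture (log2 fold change -0.23, SE 0.0257, adjusted p = 1.44e-09), the largest fall among the integrins named here. ITGB4, whose product binds laminin in hemidesmosomes, stood at 528, 510.4 and 506 CPM alone against 484, 476 and 479.9 CPM in coculture (log2 fold change -0.11, SE 0.0207, adjusted p = 6.99e-05). ITGA6, its partner, was at 562, 569 and 564 CPM alone against 567, 569 and 574 CPM in coculture and did not pass (log2 fold change -0.00, adjusted p = 0.986). ITGA3 and ITGB1, which pair in another laminin receptor, fell by 0.08 and 0.06 (adjusted p = 0.0102 and 0.036), calls held in 12 and 6 of 16 fits. SERPINE2, an inhibitor of plasminogen activators and thrombin, was at 40.4, 40.3 and 40.9 CPM alone against 33.3, 35.1 and 34.9 CPM in coculture (log2 fold change -0.25, SE 0.0425, adjusted p = 2.12e-05). DKK1, a secreted inhibitor of Wnt signalling, fell by 0.14 (adjusted p = 4.1e-05). Of 29 partial EMT genes, 16 were kept and 10 of these were called lower, 8 of them under all 7 scalings. Of the 16, 15 were below 0, with a median of -0.11. Of all kept genes, 6.37% were called lower, 3.38% under all 7 scalings, and 63.4% were below 0, with a median of -0.02. Of kept genes with a level in LAD2 alone of at most 0.1 of that in HT-29 alone, 11.8% were called lower. The other 6 kept partial EMT genes were not called in either direction. The list was chosen with earlier results of these libraries known, and its count is no independent evidence of its direction. Transcript GC content of the 10 genes ran from 40.2% in ITGA2 to 62.4% in ITGB4, beside a median of 49.8% in all kept genes. The part of GC content in these falls was not tested.

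Among transcripts that the ERK cascade induces and ligands that feed it, 11 of 27 fell, beside 6.37% of all kept genes. ERRFI1, a feedback inhibitor of the EGF receptor (chr1:8004404-8026308), was at 217, 204 and 211 CPM alone against 174, 183 and 182 CPM in coculture (log2 fold change -0.24, SE 0.0249, adjusted p = 3.08e-10). The immediate early transcription factor EGR1 stood at 49.5, 46.2 and 48.1 CPM alone against 42.1, 42.3 and 39.1 CPM in coculture (log2 fold change -0.22, SE 0.0418, adjusted p = 0.000161). JUN, a subunit of AP-1, was at 133, 126 and 126 CPM alone against 111, 115 and 118 CPM in coculture (log2 fold change -0.17, SE 0.0282, adjusted p = 8.65e-06). Coculture libraries lay below alone libraries in all 3 genes. FOSL1, another AP-1 subunit, fell by 0.18 (adjusted p = 7.71e-05) and PHLDA1, an early response gene, by 0.16 (adjusted p = 1.6e-05). Of the phosphatases that switch ERK off, DUSP5 fell by 0.24 and DUSP6 by 0.10 (adjusted p = 0.0192 and 0.0363), and in both the groups overlapped because 1 alone library was as low as the coculture libraries. DUSP5 was at 18.5, 18.3 and 15.3 CPM alone against 14.98, 15.3 and 14.8 CPM in coculture, and its call held in 11 of 16 fits. DUSP6 was at 104, 113 and 118 CPM alone against 105, 105 and 107 CPM in coculture, and its call held in 7.

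The EGF receptor ligands TGFA and AREG were measured at 105, 98.2 and 100.2 CPM alone against 89.6, 93.04 and 91.5 CPM in coculture for the first (log2 fold change -0.16, SE 0.0305, adjusted p = 0.000217) and 150.2, 147 and 144 CPM alone against 141, 138 and 140.2 CPM in coculture for the other (log2 fold change -0.09, SE 0.025, adjusted p = 0.0197). Neither ligand's groups overlapped, but AREG was called in 7 of 16 fits and TGFA in all. EGFR itself was at 139.5, 141 and 141 CPM alone against 136, 132 and 137 CPM in coculture and missed the threshold (log2 fold change -0.07, SE 0.0248, adjusted p = 0.0645), although the groups did not overlap. MET, the receptor of hepatocyte growth factor, fell by 0.11 (adjusted p = 7.86e-05) and FGFR4, a fibroblast growth factor receptor, rose by 0.17 (adjusted p = 0.000654). They were the 2 called of 12 kept receptor tyrosine kinases, beside 6.37% lower and 2.33% higher of all kept genes. MCL1, an inhibitor of apoptosis, fell by 0.09 (adjusted p = 0.00136). MYC did not pass, at 332, 332 and 339 CPM alone against 352, 349 and 344 CPM in coculture (log2 fold change 0.05, adjusted p = 0.149), and was called higher with library totals and with TMM factors over the kept genes.

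Of 32 genes on the list of ERK output and EGF receptor ligands, 27 were kept and 11 were called lower, 9 of them under all 7 scalings, with 24 of 27 below 0 and a median of -0.09, against 63.4% below 0 and a median of -0.02 in all kept genes. This list, too, was chosen with earlier results known. PLAUR stands on this list and on the partial EMT list. The CArG box, the site of serum response factor, and the cyclic AMP response element TGACGTCA were searched in the same windows. Of the 8 called genes of this list with a promoter in the table, EGR1 alone matched the CArG box. AREG alone matched the cyclic AMP response element. The EGR1 and AREG matches are shown in capitals because both are called genes of this list with such a match.
EGR1 (chr5:138465364-138465393, plus strand): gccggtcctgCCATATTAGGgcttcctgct
EGR1 (chr5:138465386-138465415, plus strand): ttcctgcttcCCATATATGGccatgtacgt
AREG (chr4:74445060-74445089, plus strand): cggccgggcctTGACGTCAtgggctgcggc
All of these windows lie upstream of the gene. A CArG box was found before a start of 1.44% of all genes with a promoter, 1.31% of kept genes, 3.25% of those called lower and none of the 99 called higher. The cyclic AMP response element was found in 2.03%, 3.76%, 5.42% and 2.02% of these sets in the same order. Of the other motifs searched, the E-box CACGTG was found in 7.73%, 11.1%, 12.3% and 16.2%, the metal response element TGCACNC in 11.9%, 12.9%, 15.2% and 8.08%, and the sterol regulatory element TCACNCCAC in 1.09%, 1.03%, 0.361% and 2.02%. Motif shares moved with sets that also differ in GC content, and the part of base composition in them was not tested.

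**Figure D4:**
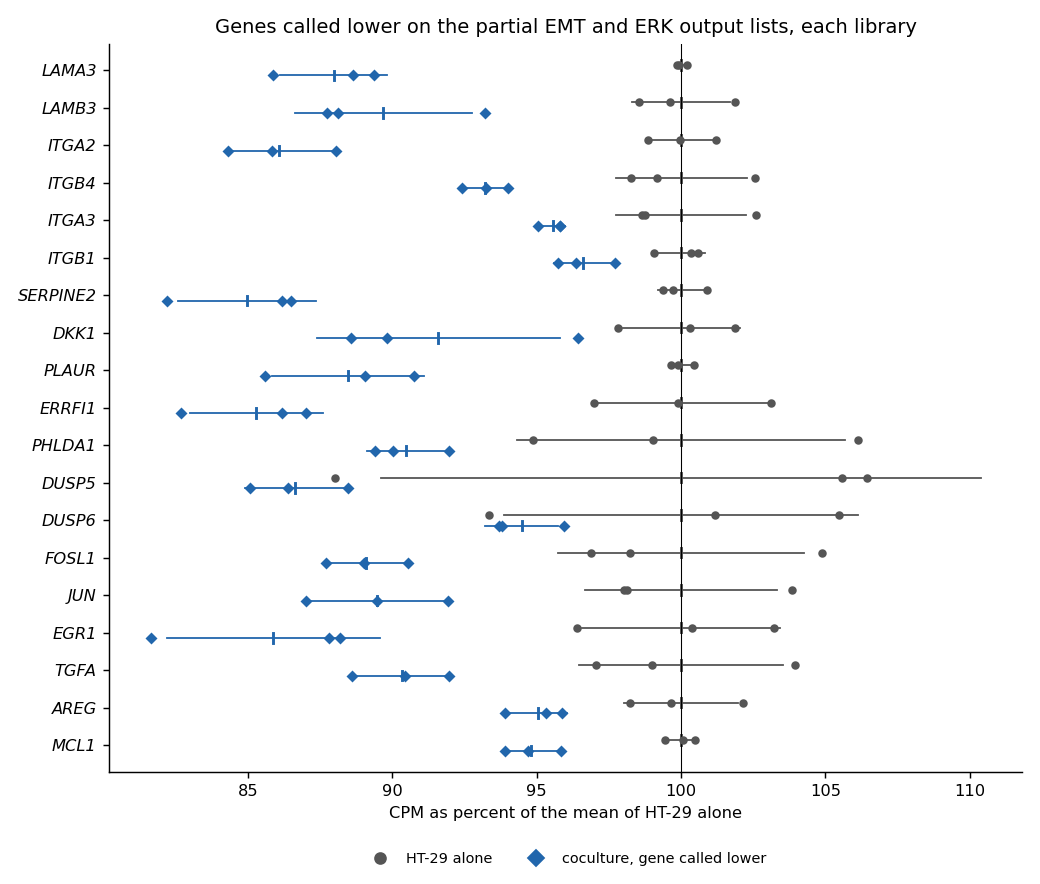
Levels in each library of genes called lower on the partial EMT and ERK output lists, as percent of the mean of HT-29 alone (x axis). Circles are alone libraries and diamonds coculture libraries, with means (vertical marks) and ± 1 SD (horizontal lines). Groups are apart in all genes shown but DUSP5 and DUSP6.

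Genes for 3 surface proteins through which epithelial cells meet mast cells, lymphocytes and complement fell. KITLG, the stem cell factor that mast cells need (chr12:88492793-88580851), was at 357, 347 and 347 CPM alone against 315, 311 and 300.1 CPM in coculture (log2 fold change -0.19, SE 0.0218, adjusted p = 2.6e-09). PVR, an adhesion protein that lymphocyte receptors bind, stood at 288, 283 and 291 CPM alone against 254, 248 and 256 CPM in coculture (log2 fold change -0.20, SE 0.0212, adjusted p = 8.39e-10). CD59, which protects cells from the complement attack complex, was at 305, 300.3 and 291 CPM alone against 264, 274 and 267 CPM in coculture (log2 fold change -0.17, SE 0.022, adjusted p = 5.51e-08). None of the 3 genes had overlapping groups, and all 16 fits called each. They were the called genes among 12 kept of 34 on the list of ligands and receptors for immune cells, beside 6.37% of all kept genes called lower. The median of the list was -0.02, as in all kept genes. The mean level of KITLG in LAD2 alone was 0 CPM. Of 33 NF-kappaB targets and chemokines, 6 were kept, and NFKBIZ, an inducible regulator of that pathway, and TNFAIP2 rose by 0.15 and 0.10 (adjusted p = 0.0129 and 0.0203). DESeq2 called neither. The protease-activated receptor F2RL1, which trypsin and mast cell tryptase cleave, fell by 0.10 (adjusted p = 0.00816).

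Of the sterol synthesis enzymes that could be followed in HT-29, 3 of 5 rose, beside 2.33% of all kept genes. Fatty acid synthase rose as well. SQLE, squalene epoxidase, was at 795, 774 and 791 CPM alone against 885, 895 and 911 CPM in coculture, 13% higher (log2 fold change 0.18, SE 0.0198, adjusted p = 2.83e-09). NSDHL, a later enzyme of the pathway, stood at 106, 103 and 106 CPM alone against 114, 113 and 113 CPM in coculture (log2 fold change 0.10, SE 0.0271, adjusted p = 0.0132). The coculture libraries lay above the alone libraries in both genes. LBR and PMVK did not pass, with log2 fold changes of -0.01 and -0.00 (adjusted p = 0.938 and 0.988). Of 23 sterol synthesis enzymes 5 were kept, since the others were higher in LAD2 alone, as HMGCS1 was at 2439 against 350 CPM. The 3 rises were called under all 7 scalings, and DESeq2 called 2 of them. NR1H3, the oxysterol receptor that induces sterol export, rose by 0.18 (adjusted p = 0.0019), and its gene overlaps ACP2, which is expressed here.

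FASN, fatty acid synthase, was at 569, 561 and 577 CPM alone against 633, 636 and 647 CPM in coculture, 11.2% higher and without overlap of the groups (log2 fold change 0.15, SE 0.0197, adjusted p = 6.74e-08). ACSL5, which activates fatty acids, and ELOVL1, which lengthens them, fell by 0.08 and 0.08 (adjusted p = 0.00654 and 0.00994), and neither fall was called under all scalings. The other 5 of 8 kept fatty acid genes were not called. SLC2A1, a glucose transporter of the plasma membrane, stood at 561, 542 and 537 CPM alone against 495, 497 and 507 CPM in coculture (log2 fold change -0.14, SE 0.0208, adjusted p = 1.06e-06), and LDHA, lactate dehydrogenase, fell by 0.09 (adjusted p = 0.00139). Both falls were called in all 16 fits, and the other 11 of 13 kept glycolysis genes were not called by edgeR. DESeq2 called 4 of the 13 lower. CA12, a carbonic anhydrase that hypoxia induces, rose by 0.10 (adjusted p = 0.00192).

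Of epithelial identity genes, 3 of 28 kept junction genes and 2 of 5 kept keratins were called, all lower, beside 6.37% of all kept genes. The called ones are nearly absent from LAD2 alone. Of kept genes with a level there of at most 0.1 of that in HT-29 alone, 11.8% were called lower. CDH1, E-cadherin, was at 463, 455 and 455 CPM alone against 441, 438 and 445 CPM in coculture (log2 fold change -0.07, SE 0.0199, adjusted p = 0.0244), and the call held in 9 of 16 fits. EPCAM, a surface adhesion protein of epithelia, stood at 752, 746 and 739 CPM alone against 723, 753 and 735 CPM in coculture, and its groups overlapped (log2 fold change -0.03, adjusted p = 0.446). KRT20, a keratin of mature enterocytes, fell by 0.08 and KRT80 by 0.17 (adjusted p = 0.00802 and 1.31e-05). PPL and DSG2, which build desmosomes, fell by 0.13 and 0.10 (adjusted p = 0.000574 and 0.000999), and with CDH1 were the called junction genes. On the junction list 25 of 28 genes were below 0, with a median of -0.03. CDX2, an intestinal transcription factor, stood at 2.28 ± 0.491 CPM alone against 2.36 ± 0.207 CPM in coculture (SD, n = 3 each) and fell short of the minimum level of the rule.

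Among 20 kept intestinal transcription factors, 2 rose and 2 fell, beside 2.33% and 6.37% of all kept genes. ELF3, which drives epithelial differentiation, was at 47.6, 53.8 and 53.9 CPM alone against 60.7, 61.7 and 61.9 CPM in coculture (log2 fold change 0.23, SE 0.0388, adjusted p = 2.84e-05). FOXA1, a pioneer factor, rose by 0.12 (adjusted p = 0.00566), while the vitamin D receptor VDR and KLF4 fell by 0.14 and 0.16 (adjusted p = 0.0171 and 0.0258). Both rises and neither fall were called under all 7 scalings. ELF3 overlaps its antisense gene. GCNT3, a mucin-type glycosyltransferase, rose from 334 ± 9.91 to 367 ± 7.84 CPM (SD, n = 3 each; adjusted p = 2.81e-05), and B3GNT3, another glycosyltransferase, fell from 66.6 ± 1.32 to 58.5 ± 1.43 CPM (SD, n = 3 each; adjusted p = 4.11e-05). MUC5AC, a gel-forming mucin, was called higher by 0.18 (adjusted p = 0.0109), although its libraries overlapped at 85.02, 71.8 and 70.6 CPM alone against 94.5, 77.4 and 85.9 CPM in coculture. Of 27 EMT transcription factors and mesenchymal genes, 2 were kept. HMGA2, a chromatin protein of fetal and tumour cells, fell by 0.17 (adjusted p = 0.000573), and BGN, a small proteoglycan whose gene shares sequence positions with HAUS7, rose by 0.14 (adjusted p = 0.00231).

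Metal and redox genes held a few clear falls. MT2A, a metallothionein that binds zinc and copper, was at 43.4, 42.6 and 40.7 CPM alone against 37.3, 35.1 and 37.4 CPM in coculture (log2 fold change -0.22, SE 0.0428, adjusted p = 0.000174), and its relative MT1E at 68.6, 69.1 and 66.5 CPM alone against 60.2, 61.8 and 57.4 CPM in coculture (log2 fold change -0.20, SE 0.0353, adjusted p = 4.7e-05). Groups were apart in both and all 16 fits called them, but metallothioneins are near-identical copies and reads may be shared among them. The cystine carrier SLC7A11 and thioredoxin reductase TXNRD1, both induced by the factor NRF2, fell by 0.13 and 0.12 (adjusted p = 8.97e-05 and 8.36e-06), and the aldo-keto reductase AKR1B10, also a target, rose by 0.11 (adjusted p = 0.00202). The other 14 of 17 kept NRF2 targets were not called. TIPARP and CYP1B1, targets of the aryl hydrocarbon receptor, fell by 0.14 and 0.14 (adjusted p = 0.000213 and 0.0211), and were the 2 called of 13 kept nuclear receptor and xenobiotic targets, whose median was 0.01 with 6 of 13 below 0. CYP1B1 was called in 10 of 16 fits and overlaps RMDN2 and CYP1B1-AS1. The YAP and TEAD list, with 11 kept genes, holds these factors as well as their targets. The factors YAP1 and TEAD1 and the targets NT5E and PTPN14 fell by 0.07 to 0.13. Of these YAP1 alone was called under all 7 scalings, and ARHGEF17 rose by 0.17. Of heat shock genes, HSP90AB1, STIP1 and FKBP4 fell by 0.06 to 0.07, and none of these falls was called with library totals or with either mixture offset. The rises of HSPA1A and HSPA1B, 0.14 and 0.11, are uncertain because these genes are near-identical.

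**Figure D5:**
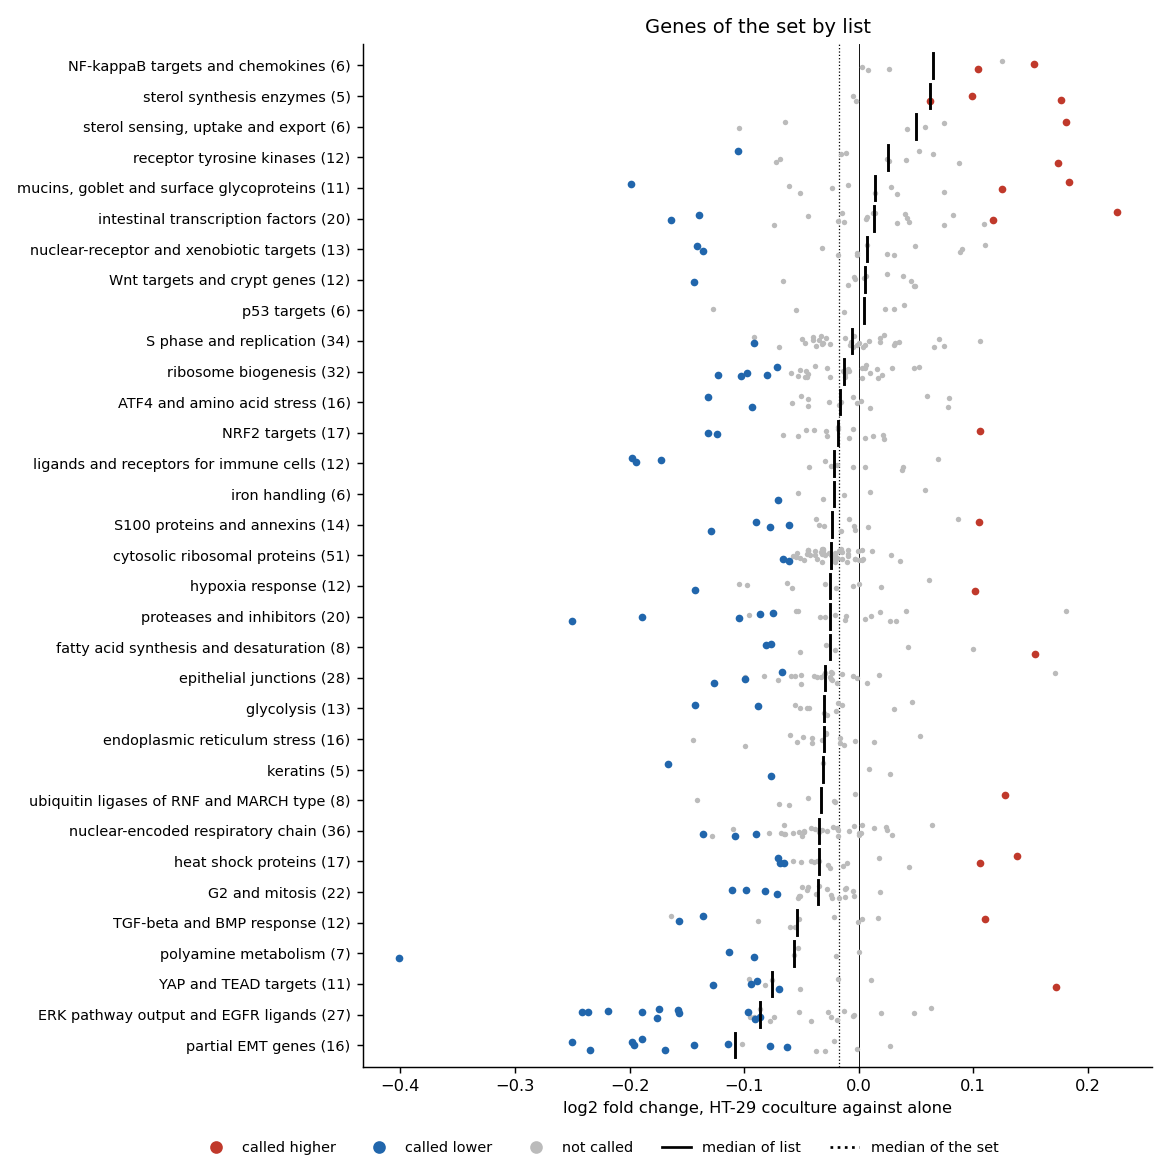
Log2 fold changes (x axis) of kept genes on each list with 5 or more of them, with the number of kept genes in brackets. Red and blue points were called higher and lower, grey points were not called, black bars are list medians and the dotted line is the median of all kept genes, -0.02. The lowest medians are those of the partial EMT list, -0.11, and the ERK output list, -0.09.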

How the data were processed

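RNA sequencing libraries of HT-29 and LAD2 cells were compared as deposited. The authors deposited raw counts per gene, without normalization, per the file headers and values, and the submitters' processing notes name STAR 2.7.10a, FastQC 0.11.9, DESeq2 3.24.0 and the build hg38. Which program counted the reads, with which strand setting and annotation, is not given in the sources used here. Reads of overlapping genes may therefore be shared. Beyond the overlaps given above, others include SLC27A3 with INTS3, TGM2 with RPRD1B, FOXA1 with TTC6, ITGB4 with GALK1 and THBS1 with FSIP1. Identifiers lacked the dot of the version suffix, and all 58721 matched GENCODE 29 (GRCh38) once the same characters were removed from it. Total counts were 17.2 to 34.1 M (1e6) per HT-29 library, where 3 counts, the limit that a count of 0 allows, are 0.0879 to 0.174 CPM, for counting error only.

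CPM was count over library total times 1000000. The 3 HT-29 coculture and 3 HT-29 alone libraries were fitted in edgeR 4.0.16 (R 4.3.3) with TMM factors, filterByExpr and the quasi-likelihood test, with Benjamini-Hochberg adjustment over 14070 genes. All 5590 members passed the filter. LAD2 libraries entered the choice of genes, the share of LAD2 RNA, the mixture offsets and the LAD2 levels and marker sums given. The LAD2 coculture profile came from 1 library that also held HT-29 RNA. The script was tested on simulated counts with known changes. Alternatives were other scalings, offsets for LAD2 RNA and GC content, no filter, DESeq2 1.42.0, a replicate block, other member rules, and each replicate left out. Promoters were RefSeq's (GRCh38.p14), 35116 of them, matched by symbol.

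The genes, the 43 lists (1047 of 1051 distinct genes matched) and the rules were chosen with earlier results of these data known. Named genes were, among called protein-coding members, the 12 that rose and the 12 that fell most, of each list the called members with the smallest p (at most 4), a fixed set (CDH1, EPCAM, KITLG, KRT20, CDX2, MYC, EGFR) and the sterol synthesis members. The ERK, partial EMT, polyamine, fatty acid, protease, YAP and TEAD, heat shock, annexin and ribosome biogenesis lists were read in full, and genes named from them past the 4 were chosen after their values were seen. A few genes that this rule took are not reported here.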

Additional observations from a re-analysis of the deposited data

Results flagged for a closer look

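RNA of HT-29 was also present in the LAD2 coculture library. That library was tested against no group here, but gave the LAD2 coculture profile of the mixture offset and the count of 5435 genes. The 22 colon epithelium markers summed to 1158 CPM there, against 228 to 252 CPM in the 3 LAD2 alone libraries and 13990 to 14582 CPM in HT-29 alone. It drew attention because the level lay above that of LAD2 alone, and it rests on 1 library, so the difference was not tested.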

How the results depend on the processing

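The main counts of 486 called genes (130 higher, 356 lower) moved by over 1.5 times in some settings. Falls were 231 with library totals, 206 with TMM factors over the members (with 208 rises), 216 and 224 with the mixture offsets of the LAD2 alone and LAD2 coculture profiles. The DESeq2 Wald test called 201 (39 and 162). Members whose level in LAD2 alone was at most 0.1 of that in HT-29 alone gave 182 of 1072 genes (56 and 126). Fewer genes could be called there, but the shares were larger, at 5.22% higher and 11.8% lower against 2.33% and 6.37% of all members. Leaving out 1 replicate left 303 to 475 calls (70 to 124 higher, 232 to 351 lower), with fewer libraries. The causes of the other shifts were not tested. The counts stayed within 1.5 times with DESeq2 size factors, no filter, the GC offset (added after the data were seen) and the other member rules. With the replicate block 594 genes were called (149 and 445). Same-numbered libraries deviated with correlations of 0.0684, 0.0319 and 0.119, and coculture replicate 2 correlated best with alone replicate 1, so the numbers were not taken as pairs. No named gene called in the main fit changed direction, and changes of sign in genes called in neither fit were not counted. Of 125 called named genes, 45 lost the call in DESeq2, 32 and 31 with the mixture offsets, and 14 to 40 with 1 replicate left out. EGFR passed with the block, SMS without alone replicate 3, SRM with the GC offset, and MYC with library totals and with TMM over the members. Depth limits small changes of low genes: the smallest called change was 0.19 on the log2 scale for members at 10 to 20 CPM in HT-29 alone, where 3.78% were called, and 0.06 at 300 CPM or more, where 17.9% were.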

Other observations

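Genes of growth and housekeeping lists that were called were lower, beside 6.37% of all kept genes called lower and a median of -0.02. Of 51 kept cytosolic ribosomal proteins, 2 were called lower, with a median log2 fold change of -0.02, and the others were not called. Ribosome biogenesis genes had 5 lower of 32 with a median of -0.01, and of these RRP12, with the smallest p, fell by 0.10 (adjusted p = 0.00722), and 1 of the 5 was called under all 7 scalings. Among 22 genes of G2 and mitosis 4 were lower and 21 were below 0, with a median of -0.04, against 63.4% of all kept genes below 0. Of the 4, ANLN, a scaffold of the cytokinetic ring, and CDC25B, an activator of mitotic kinases, were called under all scalings (log2 fold changes -0.11 and -0.10, adjusted p = 0.000353 and 0.00332). S phase genes had 1 called of 34, CDC6, at -0.09 (adjusted p = 0.0184), which 7 of 16 fits called. Nuclear-encoded respiratory chain genes had 3 lower of 36 and 27 below 0, with a median of -0.03 and with ATP5MC1, a subunit of the ATP synthase, at -0.14 (adjusted p = 0.00165).

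In the edgeR test, no kept gene was called among 16 of endoplasmic reticulum stress, 4 interferon-stimulated genes, 4 of antigen presentation or 6 p53 targets. At an unadjusted p under 0.05 these lists held 5, 0, 2 and 1 genes, all lower, and DESeq2 called none of them. Most interferon-stimulated genes could not be followed, since 4 of 48 met the rule. SLC7A11 and SLC38A1, which carry amino acids, were the 2 called genes of 16 kept ATF4 targets (log2 fold changes -0.13 and -0.09). Among S100 proteins and annexins, ANXA4 rose by 0.11 while ANXA3, S100A16, S100A11 and ANXA5 fell by 0.06 to 0.13. Genes on no list held 107 of the 130 rises and 278 of the 356 falls, which was 2.12% and 5.50% of the 5051 such genes. Of the 539 kept genes on a list, 4.27% rose and 14.5% fell, and the lists were chosen with earlier results known.

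A few further genes were chosen after their values were seen. TSC22D1, a leucine zipper protein that TGF-beta induces, was at 400.0, 401 and 393 CPM alone against 338, 348 and 355 CPM in coculture (adjusted p = 7.32e-11), and THBS1, a matrix glycoprotein, fell by 0.20 (adjusted p = 7.57e-05). CEBPA, a transcription factor of differentiation, and RARG, a retinoic acid receptor, rose by 0.20 and 0.16 (adjusted p = 0.000799 and 0.000135). TGM2, a transglutaminase, rose by 0.16 (adjusted p = 0.0195). The groups did not overlap in any of the 5 genes.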
